A study of Mus musculus with 6 samples.

Results

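The genes described here are the AP-1 and EGR immediate-early transcription factors of microglia, taken as the rows of the count table whose Ensembl identifiers carry the symbols Fos, Fosb, Fosl2, Jun, Junb, Jund, Egr1, Egr2, Egr3 and Atf3. All 10 were found among 55401 identifiers, and all 10 passed the filter on low counts that left 19554 genes to test. Microglia, the resident macrophages of the brain, were compared between lupus-prone MRL/lpr mice, which have the lpr mutation in Fas, and the control strain of the same background, MRL/mpj, which lacks it. Each strain gave 3 libraries labelled as untreated, 6-week-old brain. Brains were digested with collagenase and DNase, enriched on Percoll and selected magnetically for CD11b, a surface integrin that microglia share with other myeloid cells. The study bought female mice, but the labels state no sex. The study gives its replicates for this profiling as mice, and the labels do not say whether a library holds a single animal. The p-values measure the spread between these libraries.

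Immediate-early genes are transcribed within minutes of a stimulus by factors already present in the cell, and need no new protein to be switched on. AP-1 is a dimer of a JUN protein with a FOS, JUN or ATF protein, joined through leucine zippers, and it binds sites of the form TGANTCA. EGR proteins bind GC-rich sites through zinc fingers and are restrained by the NAB corepressors. In microglia and other macrophages both families are induced by growth factor, cytokine and pattern-recognition signals, and also by handling and enzymatic digestion of tissue. All libraries came from digested tissue, so transcript present in the brain and transcript made during isolation cannot be told apart.

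Libraries held 45481609 to 49846634 counts. The 10 genes took 2.79%, 2.71% and 2.30% of the counts of MRL/lpr replicates 1 to 3, and 1.52%, 1.63% and 1.55% of those of MRL/mpj replicates 1 to 3. MRL/lpr replicate 3 stood apart from the other libraries of its strain. In it, 7 of the 10 genes had their lowest MRL/lpr value, and the median of the 10 ratios to the mean of replicates 1 and 2 was 0.893, against 0.989 over 3369 abundant genes. Fas itself had 461, 282 and 298 counts in MRL/lpr and 426, 432 and 362 in MRL/mpj, which overlap, and a count over the whole gene does not check the mutation.

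Of the 10 factors, 9 were upregulated in MRL/lpr microglia and none was downregulated (edgeR quasi-likelihood test, adjusted p under 0.05). Among all tested genes 20.2% were called at that threshold, 11.1% higher and 9.06% lower. The 10 were chosen with earlier results of these data known, so these shares give scale and are not a test. At an unadjusted p under 0.05, and with DESeq2, the number of factors downregulated was also 0. The 9 were all but Egr2, and their log2 fold changes ran from 0.74 for Jun to 1.08 for Junb, and 12.9% of tested genes exceeded the value of Jun. In each of the 9, every MRL/lpr library lay above every MRL/mpj library, a separation shown by 19.6% of tested genes. Fosb and Junb, 2 of the 10, also reached the study's fold minimum, a log2 fold change of 1, which 4.67% of tested genes passed upward and 3.66% downward. A test against that minimum itself, edgeR's glmTreat, called none of the 10, and 1, Junb, had an unadjusted p under 0.05 in it. The median log2 fold change of the 10 was 0.86, against -0.01 over all tested genes. In bulk RNA a difference in the share of cells that express a gene and a difference in RNA per cell cannot be told apart.

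**Figure D1:**
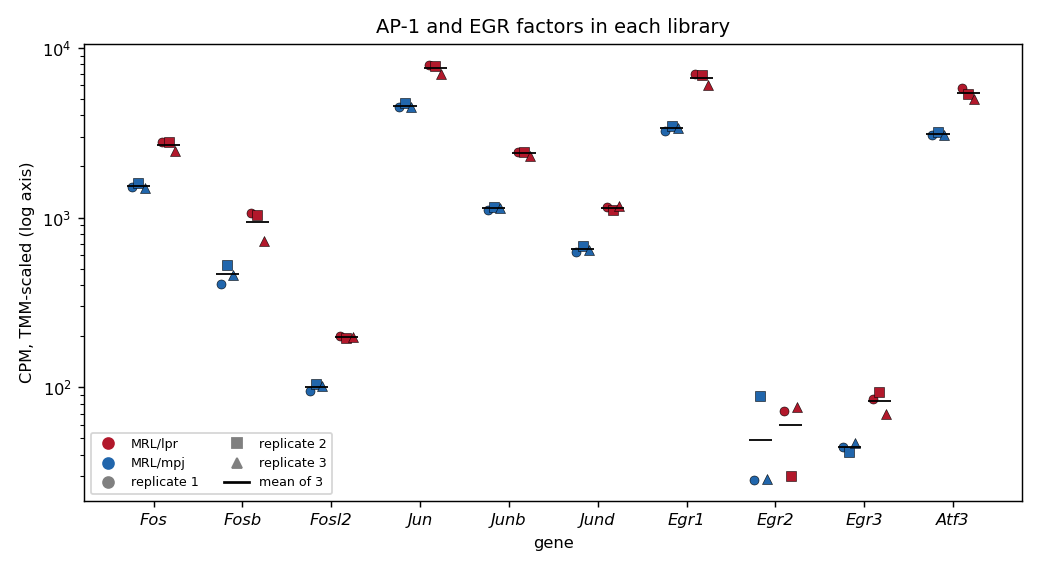
CPM of each factor in each library, scaled with TMM, on a log axis, with red for MRL/lpr, blue for MRL/mpj, a marker shape per replicate and a line at the mean of 3. The colours separate in 9 genes, while Egr2 splits within both strains, with 28.5 to 30.04 CPM in 3 libraries and 73.0 to 89.4 in the other 3.

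Levels of single genes are given as CPM, counts relative to the library total scaled with TMM factors, and fold changes are MRL/lpr over MRL/mpj. Among the FOS proteins, Fos (ENSMUSG00000021250, GRCm38 chr12:85473890-85477273, plus strand, 4 exons), the founding partner of Jun in AP-1, had 2803, 2791 and 2474 CPM in MRL/lpr and 1520, 1602 and 1495 in MRL/mpj. The lowest MRL/lpr library, replicate 3, was still 1.54 times the highest control. Fos was upregulated 1.75-fold, with a log2 fold change of 0.81 ± 0.07 (SE, n = 3 per strain; edgeR quasi-likelihood test, adjusted p = 3.47e-05). Its promoter is shown because it carries repeated copies of a response element close to a TATA box. RefSeq promoter sequence on GRCm38.p6 is given 5′ to 3′ on the gene's strand. Positions are counted from the RefSeq transcription start, with -1 as the base before it. The window chr12:85473760-85473879 spans positions -130 to -11. Capitals mark copies of TGACG, the core of the cyclic AMP response element bound by CREB and ATF proteins, at -129 to -125 and at -66 to -62, and the TATA box TATAAA at -33 to -28.
Fos: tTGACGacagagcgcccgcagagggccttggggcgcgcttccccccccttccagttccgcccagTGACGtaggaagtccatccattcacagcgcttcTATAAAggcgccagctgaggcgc

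Fosb (ENSMUSG00000003545, chr7:19302696-19310051, minus strand, 4 exons), a FOS protein whose splice forms differ in their transactivation domain, had 1058, 1040 and 728 CPM in MRL/lpr and 406, 524 and 462 in MRL/mpj. It varied more between replicates than the other FOS genes, with a coefficient of variation of 19.7% in MRL/lpr and 12.7% in MRL/mpj, and MRL/lpr replicate 3 stood at 0.694 times the mean of the other MRL/lpr libraries. The strains did not overlap. Fosb was upregulated 2.03-fold, a log2 fold change of 1.02 ± 0.16 (SE; edgeR quasi-likelihood test, adjusted p = 0.00452). Without MRL/lpr replicate 3 the log2 fold change was 1.18. A stretch at chr7:19310085-19310114, positions -69 to -40 on the minus strand, is shown because it holds the cyclic AMP core and an EGR site of the form GCGNGGGCG side by side, both in capitals.
Fosb: agttgcgggTGACGcaagcGCGGGGGCGgg

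Fosl2 (ENSMUSG00000029135, chr5:32135801-32157842, plus strand, 4 exons) encodes FRA2, a FOS protein without the strong transactivation domain of FOS. It had 201, 195 and 198 CPM in MRL/lpr and 94.8, 105 and 102 in MRL/mpj. Unlike Fos and Fosb, its level in MRL/lpr replicate 3 was 1.001 times the mean of replicates 1 and 2. Fosl2 was upregulated 1.97-fold, with a log2 fold change of 0.98 ± 0.07 (SE; edgeR quasi-likelihood test, adjusted p = 1.08e-05).

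Among the JUN proteins, Jun (ENSMUSG00000052684, chr4:95049034-95052222, minus strand, a single exon), a strong activator that is itself a target of AP-1, had 7946, 7828 and 7025 CPM in MRL/lpr and 4467, 4740 and 4460 in MRL/mpj. The strains did not overlap, and MRL/lpr replicate 3 was the lowest of its strain. Jun was upregulated 1.67-fold, with a log2 fold change of 0.74 ± 0.06 (SE; edgeR quasi-likelihood test, adjusted p = 5.08e-05), the smallest among the 9. The window chr4:95052233-95052352, positions -130 to -11 on the minus strand, is shown because it holds TGACATCA, a variant of the cyclic AMP element to which JUN and ATF2 dimers are known to bind, at -45 to -38 in capitals.
Jun: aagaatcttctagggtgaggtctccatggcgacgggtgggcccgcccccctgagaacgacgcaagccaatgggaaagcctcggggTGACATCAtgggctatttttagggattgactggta

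Junb (ENSMUSG00000052837, chr8:84974484-84978718, minus strand, main transcript of 1 exon) encodes a weaker activator that can oppose JUN at some promoters. Its levels were 2440, 2432 and 2312 CPM in MRL/lpr and 1110, 1160 and 1132 in MRL/mpj. The replicates lay close together, with coefficients of variation of 3.003% and 2.21%, and the lowest MRL/lpr library was 1.99 times the highest control. Junb was upregulated 2.11-fold, with a log2 fold change of 1.08 ± 0.06 (SE; edgeR quasi-likelihood test, adjusted p = 2.09e-06), the largest of the 10. In the window chr8:84978759-84978878, positions -130 to -11 on the minus strand, capitals mark TGACG at -106 to -102. It is shown for comparison with Fos and Jun, since Junb had the largest fold change. A TATAAA also began at the RefSeq start itself, which lies upstream of the GENCODE start.
Junb: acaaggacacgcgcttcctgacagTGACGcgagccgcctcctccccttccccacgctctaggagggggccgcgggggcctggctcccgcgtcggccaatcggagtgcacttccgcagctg

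Jund (ENSMUSG00000071076, chr8:70698949-70700616, plus strand, 1 exon), the JUN protein usually present at a steady level in resting cells, had 1147, 1107 and 1165 CPM in MRL/lpr and 631, 677 and 642 in MRL/mpj. Here MRL/lpr replicate 3 was the highest library and not the lowest. Jund was upregulated 1.75-fold, with a log2 fold change of 0.81 ± 0.06 (SE; edgeR quasi-likelihood test, adjusted p = 1.24e-05).

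Among the EGR zinc finger factors, Egr1 (ENSMUSG00000038418, 2 exons), the broadly induced member of the family, had 7002, 6878 and 6007 CPM in MRL/lpr and 3222, 3478 and 3377 in MRL/mpj. The strains were separated by 1.73-fold at their nearest libraries. Egr1 was upregulated 1.97-fold, with a log2 fold change of 0.98 ± 0.07 (SE; edgeR quasi-likelihood test, adjusted p = 1.49e-05). Egr3 (ENSMUSG00000033730, chr14:70077203-70082614, plus strand, 2 exons), a family member known from lymphocyte tolerance and muscle spindles, had 85.4, 94.4 and 70.1 CPM in MRL/lpr and 44.4, 41.7 and 47.1 in MRL/mpj. All MRL/lpr libraries were again above all controls, with replicate 3 the lowest of them. Egr3 was upregulated 1.88-fold, with a log2 fold change of 0.91 ± 0.11 (SE; edgeR quasi-likelihood test, adjusted p = 0.000465).

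Egr2 (ENSMUSG00000037868, chr10:67535475-67542188, plus strand, 2 exons), known for myelination and for lymphocyte and macrophage activation, was the only member not called. It had 73.0, 30.04 and 76.3 CPM in MRL/lpr and 28.5, 89.4 and 28.9 in MRL/mpj. The values fell into a low level in MRL/lpr replicate 2 and MRL/mpj replicates 1 and 3, and a high level in the remaining libraries, with both levels in both strains. A single count per gene does not show whether such a jump lies in expression or in how reads were assigned to the gene, so neither the 2 levels nor the fold change of Egr2 can be read as expression alone. The log2 fold change was 0.29 with a 95% interval of -1.46 to 2.04 (edgeR quasi-likelihood test, adjusted p = 0.827), an interval that contains the log2 fold change of each of the other 9. Leaving out single libraries moved it from 0.01, without MRL/mpj replicate 1, to 1.06, without MRL/mpj replicate 2, and none of these fits called it. Jumps of this size were uncommon at this abundance. Of 3665 tested genes with at least the mean CPM of Egr2, 2.16% spanned more than 2-fold among the MRL/lpr libraries, 1.77% among the MRL/mpj libraries and 0.791% in both, and Egr2 spanned 2.54-fold and 3.14-fold. A site at chr10:67537794-67537823, positions -75 to -46 on the plus strand, is shown because it holds a CArG box, the site of serum response factor. Among members with promoter sequence only Egr2, which was searched in several windows, carried this box in the short windows used. Capitals mark the box and the reversed core of the cyclic AMP element. The site lies in no GENCODE exon.
Egr2: agtCCATATATGGgcagcgaCGTCAcgggt

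Atf3 (ENSMUSG00000026628, chr1:191170296-191218039, minus strand, 4 exons), a stress-induced ATF protein that dimerises with JUN proteins and represses many inflammatory genes as a homodimer, had 5780, 5375 and 4997 CPM in MRL/lpr and 3064, 3188 and 3060 in MRL/mpj. The controls lay within a coefficient of variation of 2.34% and below all MRL/lpr libraries. Atf3 was upregulated 1.73-fold, with a log2 fold change of 0.79 ± 0.07 (SE; edgeR quasi-likelihood test, adjusted p = 3.35e-05). The site chr1:191183328-191183357, positions -24 to 6 on the minus strand, is shown because it has the core of the cyclic AMP element, reversed and in capitals, right at the start.
Atf3: agctattaatagcattaCGTCAgcctggga

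Promoters of 8 of the 10 genes were matched in the RefSeq table by symbol, those of Egr1 and Egr3 excepted, and motifs were searched on both strands. Each window was short and lay around a transcription start, so sites further upstream were not searched. TGACG occurred in Fos, Fosb, Junb, Egr2 and Atf3, and in 20.8% of 32851 windows of the same length in the table. A factor counted if any of its windows matched, while the shares are of single windows, 32851 for 27025 genes. The 2 measures are therefore not alike. The EGR form GCGNGGGCG occurred in Fosb and Fosl2 and in 5.55% of windows, TATAAA in Fos and Junb and in 13.6%, and the CArG box in Egr2 and in 1.63%. The full element TGACGTCA, which contains that core, and the AP-1 form TGANTCA were in none of the 8, and in 1.79% and 7.81% of windows. TGACNTCA, a search added after the promoters were read, occurred in Jun and in 8.83%. Matches are letters in a window, and do not show that a factor was bound.

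The factors were also alike in having few exons. Gene structure was not used to choose them, but they come from a few related families, so their structures are not independent. Their spans differed, from 1668 bases in Jund to 22042 in Fosl2. Jun, Junb and Jund had 1 exon in their main transcript, as did 3.44% of 14928 tested coding genes, and all 10 had at most 4 exons, against 22.8%. Each had at least 1 ATTTA, the core of AU-rich elements that shorten mRNA life, in the 3′ untranslated region, compared with 67.0% of coding genes, and 6 had at least 3, compared with 36.0%. Fosl2 had the most, 8, and Fosb and Jund had 1. GC content of the transcripts ran from 51.4% in Egr3 to 67.2% in Jund, with a median of 54.3% against 50.4%. Of the 10, 4 overlap a gene on the opposite strand, and the sources used here do not say whether counting used the strand that the library kit keeps. Counts of these partners were small beside those of the factors. Junos, opposite Jun, had 32 to 59 counts, and Prdx2, opposite Junb, had 1928 to 2347. Gm11175, opposite Jund, had 0 to 413 and Gm24748, opposite Atf3, had 0 to 3.

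Levels between genes were compared per length, in FPKM as deposited. In MRL/lpr, Atf3 and Jun led with 2142 ± 215 and 2042 ± 196 FPKM (mean ± SD, n = 3), and took ranks from 14 to 21 among all genes in these libraries. Egr1 followed with 1267 ± 142, Junb with 1133 ± 69.2, Fos with 980 ± 97.6 and Jund with 584 ± 12.96. The ranges of Atf3 and Jun overlapped, as did those of Egr1 and Junb, though within each library the order was the same. Fosb was lower, with 130 ± 29.1 FPKM, and Fosl2, Egr3 and Egr2 had 17.5 ± 0.602, 16.2 ± 2.84 and 14.96 ± 6.30, ranges that overlapped. In MRL/mpj, Atf3 and Jun again led, with 1341 ± 32.1 and 1329 ± 47.3, ranges that overlapped. Egr1 had 697 ± 27.2, Fos 609 ± 22.4, Junb 583 ± 13.3 and Jund 362 ± 13.6. Fosb had 69.2 ± 8.80, Egr2 13.4 ± 9.60, Fosl2 9.67 ± 0.511 and Egr3 9.37 ± 0.575, and the last 3 overlapped. Fos and Junb exchanged places between the strains, Junb being above Fos in all 3 MRL/lpr libraries and below it in all 3 MRL/mpj libraries. In MRL/mpj their ranges overlapped, with 591 to 634 FPKM for Fos and 571 to 597 for Junb. The ratio of Junb to Fos was not tested.

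Balance within each family was read as log2 ratios of FPKM inside 1 library, which no scaling between libraries touches. Junb to Jun was -0.89, -0.87 and -0.79 in MRL/lpr and -1.19, -1.21 and -1.16 in MRL/mpj, a mean difference of 0.34. Jund to Junb was -0.97, -1.02 and -0.87 in MRL/lpr and -0.70, -0.66 and -0.70 in MRL/mpj, a difference of -0.27. Fosl2 to Fos was higher by 0.17 in MRL/lpr, also without overlap. Junb was thus higher relative to both Jun and Jund in every MRL/lpr library than in any MRL/mpj library. Jund to Jun overlapped between strains, as did 5 other pairs of the 9. With 3 libraries against 3 the smallest two-sided exact permutation p is 0.1, which the 3 pairs without overlap reached, with an adjusted p of 0.3 over the 9 pairs, so no pair passed.

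**Figure D2:**
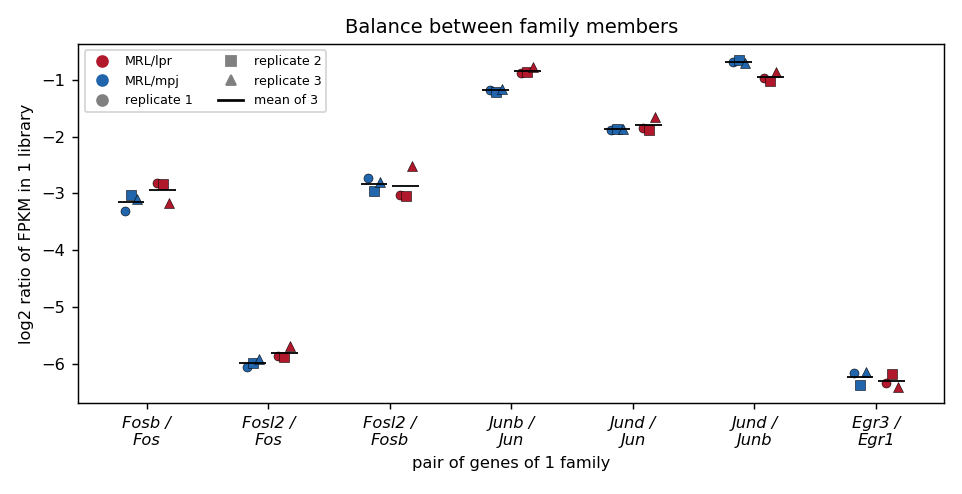
Log2 ratios of FPKM between genes of 1 family within each library, with red for MRL/lpr, blue for MRL/mpj, a marker shape per replicate and lines at the means of 3 (pairs with Egr2 are not drawn). Junb to Jun lay higher in all MRL/lpr libraries (mean -0.85) than in all MRL/mpj libraries (mean -1.19), and Jund to Junb lay lower.

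The relatives of these factors, partners and corepressors outside the 10, moved less uniformly. Of 10 relatives tested, 4 were higher and 1 lower, against 11.1% and 9.06% of all tested genes. Their median log2 fold change was 0.23. Egr4, a further EGR family member, rose from 0.419 ± 0.174 to 3.35 ± 0.783 CPM (mean ± SD), on 16 to 31 counts in MRL/mpj and 129 to 177 in MRL/lpr, with a log2 fold change of 2.99 (edgeR quasi-likelihood test, adjusted p = 0.00054). Fosl1, which encodes FRA1, rose from 1.02 ± 0.357 to 4.998 ± 0.812 CPM, a log2 fold change of 2.29 (edgeR quasi-likelihood test, adjusted p = 0.000719). Under the alternatives the log2 fold change went down to 0.98 for Egr4 and 1.08 for Fosl1, both still called. These were scarce transcripts, Fosl1 having 38 to 71 counts in the controls and 170 to 262 in MRL/lpr. Jdp2, a repressor that dimerises with JUN proteins, rose by 1.72 on the log2 scale, from 17.05 ± 1.42 to 56.2 ± 5.04 CPM (edgeR quasi-likelihood test, adjusted p = 5.67e-06). Batf, which pairs with JUN proteins in immune cells, rose by 0.84, to 16.98 ± 0.354 CPM (edgeR quasi-likelihood test, adjusted p = 0.00166). Batf3 differed by -0.20 (adjusted p = 0.615 in edgeR's quasi-likelihood test), and the EGR corepressor genes Nab1 and Nab2 by 0.12 and 0.13 (edgeR adjusted p = 0.495 and 0.384). Atf2, a constitutive ATF protein activated by phosphorylation, was lower by -0.30 (edgeR adjusted p = 0.0307), a call that was lost without any 1 library other than MRL/lpr replicate 3.

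**Figure D3:**
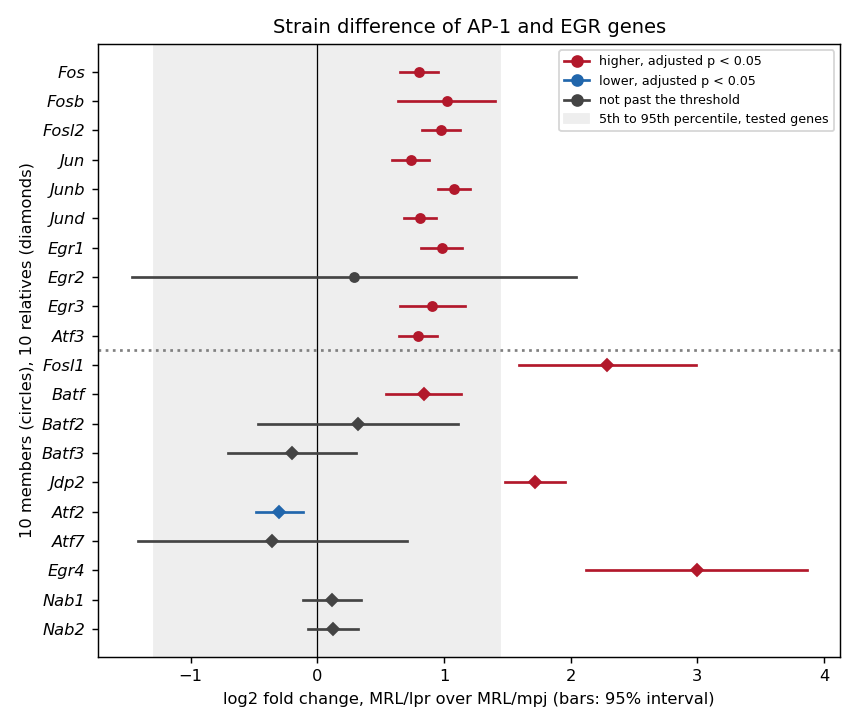
Log2 fold change of the 10 factors (circles) and 10 relatives (diamonds) with 95% intervals, against the 5th to 95th percentile of all tested genes in grey. The intervals of 9 factors lie above 0, and that of Egr2 runs from -1.46 to 2.04.

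The factors and kinases that act on these genes from above mostly did not pass the test. Of 18 tested, 2 were higher and none lower, against 11.1% and 9.06% of all tested genes. Their median log2 fold change was 0.04. Mapk14, which encodes the p38 alpha kinase, rose from 96.0 ± 25.2 to 226 ± 9.44 CPM, a log2 fold change of 1.24 (edgeR quasi-likelihood test, adjusted p = 0.00186). Mrtfa, a coactivator of serum response factor, rose by 0.34 (edgeR adjusted p = 0.0404), a call lost without any 1 library other than MRL/lpr replicate 1. Srf, which encodes serum response factor, differed by 0.27 (edgeR adjusted p = 0.101). Transcript levels of kinases do not show their activity, which was not measured.

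Other immediate-early genes, outside these families, had a median log2 fold change of 0.86, the same to 2 decimals as that of the 10 factors. Among all tested genes 11.1% were called higher, 4.67% by at least 1, and 9.06% lower. Of these 30 genes, 23 were higher, 9 of them by at least 1, and none was lower. The largest log2 fold changes were 1.78 for Nr4a3, an orphan nuclear receptor, 1.23 for Csrnp1, 1.17 for Ier2 and 1.15 for Btg2, an antiproliferative gene. Summed over the 30, the level was 27180 to 30330 CPM in MRL/lpr and 16320 to 16810 in MRL/mpj. Among 19 genes known as targets of AP-1 or EGR factors, 18 were tested, of which 10 were higher and 1 lower, with a median of 0.42. Ptgs2, which encodes cyclooxygenase-2, rose by 1.37 on the log2 scale, Plau, the urokinase gene, by 1.31 and Tnf, an inflammatory cytokine gene, by 1.30 (edgeR quasi-likelihood test, adjusted p of at most 2.51e-05). Both lists were chosen with earlier results of these data known, so their counts beside the shares of all tested genes are descriptive.

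**Figure D4:**
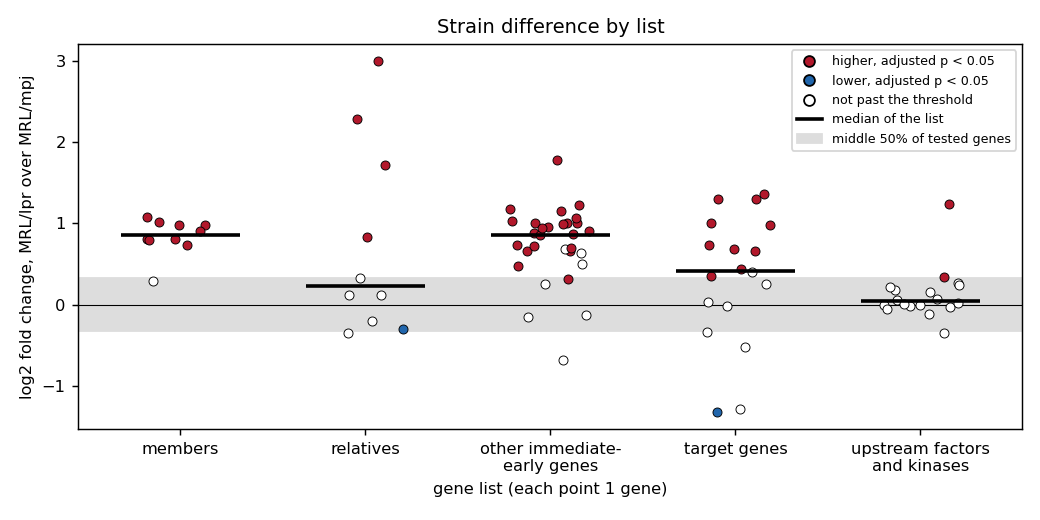
Log2 fold change of each gene by list, with filled points past an adjusted p of 0.05, a line at the median of each list and the middle 50% of tested genes in grey. The medians are 0.86 for the 10 factors, 0.23 for relatives, 0.86 for other immediate-early genes, 0.42 for targets and 0.04 for upstream factors and kinases.

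Genes nearest to the mean profile of the 10 factors over the 6 libraries were found by the root mean square distance of log2 CPM centred on each gene's mean. That mean profile includes Egr2, which stood at 0.89 in MRL/mpj replicate 2. There the mean profile was -0.27, against -0.53 and -0.48 in MRL/mpj replicates 1 and 3. A mean without Egr2 was not tried. The 5 nearest outside the 10 were Ier5 at 0.0540, Fam49a at 0.0545, AC167363.2 at 0.0605, Gm19510 at 0.0631 and H2-M3 at 0.0645. Ier5 is itself an immediate-early gene and H2-M3 a nonclassical MHC class I gene. Of the 10 factors, Atf3 was nearest to their mean at 0.0702 and Egr2 farthest at 0.670, with Fosb next at 0.174. The profile was not particular to the factors, since 426 of 19544 other tested genes lay nearer to it than Fosb.

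Of all tested genes, 11.1% were called higher and 9.06% lower, the shares to set beside the marker counts below. Markers of the labelled cell type were present in every library, and none was higher in MRL/lpr. The 12 microglia markers summed to 23810 to 26510 CPM in MRL/lpr and 27390 to 28130 in MRL/mpj, with 3 of them lower and none at 0. Without MRL/lpr replicate 3 the number lower was 6. Among the 12, Cx3cr1 had 2819 CPM in MRL/lpr replicate 2 and 226 to 564 in the other libraries, and without it the sums were 23030 to 26260 and 26830 to 27570 CPM. The summed level of markers of some other cells was higher in MRL/lpr, as was that of the factors. For monocytes and neutrophils, 4 of 8 markers were higher and the sum was 604 to 694 CPM against 464 to 527, with none at 0. The 4 were Plac8, S100a8, Ngp and Retnlg. Among those not called, Ccr2 and Ly6c2 had log2 fold changes of -0.26 and 0.39 (edgeR adjusted p = 0.349 and 0.146). Only 2 of the 8 were called without MRL/mpj replicate 3, with the replicate block, by library size only or on FPKM. For B and T cells, 5 of 10 were higher and the sum was 19.5 to 27.6 CPM against 11.1 to 12.3, with Ms4a1, Cd3e and Trac at 0 counts in 1 MRL/mpj library each. For endothelium, 2 of 8 were higher, Flt1 and Ly6c1, and 1 lower, Tek (2 lower without MRL/lpr replicate 3). The median log2 fold change of the 8 was 0.10. By library size only or on FPKM, 1 was higher and 1 lower. The endothelial sum was 1921 to 2096 CPM against 1761 to 1824, and Flt1 alone had a mean of 697.5 against 545.2. Summed over the 10 factors the level was 25050 to 28530 CPM against 14590 to 15600. Markers of neurons, astrocytes, oligodendrocytes and border macrophages were summed lower in MRL/lpr, with 3 of 12, 1 of 8, 2 of 8 and 2 of 6 markers lower and none higher. The astrocyte call was lost without MRL/lpr replicate 3 or any 1 MRL/mpj library, and the border macrophage count fell to 1 whichever library was left out. The part of other cells in the levels of the factors was not tested.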

How the data were processed

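The deposited tables hold raw whole-number counts for each gene, and FPKM values that the authors computed per library from counts, length and depth. Per the submitters' processing notes the tools were cutadapt 1.9.3, HISAT2 2.0.4, Cufflinks and Cuffdiff 2.2.1, on GRCm38, and the paper's methods add DESeq2. The counting tool and its use of strand are not given in the sources used here. The labels describe removal of ribosomal RNA and a stranded total RNA kit, and the methods describe purification of mRNA. GENCODE M21 for GRCm38 gave symbols, exons and coordinates (55141 of 55401 identifiers matched), and RefSeq on GRCm38.p6 gave promoter sequences.

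Counts were filtered with filterByExpr (minimum count 10, minimum total 15), scaled with TMM and tested with the quasi-likelihood test of edgeR 4.0.16 in R 4.3.3, with robust dispersions, no covariate and Benjamini-Hochberg adjustment over 19554 genes. A call needs an adjusted p under 0.05. Standard errors were derived from the log2 fold change and the quasi-likelihood F statistic, and the intervals, at 95%, from those standard errors. The members and lists were chosen with earlier results of these data known. The genes named are the 10 members, up to 4 called genes with the largest changes in each list of related genes, Srf, Nab1, Nab2, Fosl1, Batf, Batf3 and Jdp2 for their role, the 5 nearest profiles, and markers from fixed lists. Fas and the genes overlapping members were added, and 1 gene under this rule is not reported here. Total counts measure depth only roughly, since the authors' counts pile up at multiples of 4. Alternatives were DESeq2 1.42.0, limma 3.58.1 on FPKM, other scalings, filters and dispersions, glmTreat, a replicate block, counts divided by 4, and each library left out. TMM factors set without mitochondrial genes and the top 20 genes by counts were added after seeing the data. The script steps were tested on simulated data.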

Additional observations from a re-analysis of the deposited data

How the results depend on the processing

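The 9 upregulated factors stayed called in 17 of 18 alternatives, and no log2 fold change of the 10 factors changed sign in any of them. The exception was glmTreat against a log2 fold change of 1, which called 0 of the 10 higher, and 379 genes higher and 237 lower over all. Over the other 17 alternatives the log2 fold change ran from 0.61 to 0.80 for Jun, from 0.96 to 1.11 for Junb, from 0.88 to 1.18 for Fosb and from 0.01 to 1.06 for Egr2. Without TMM scaling, by library size only, the median of tested genes moved to -0.13 and the calls split into 1634 higher and 2790 lower genes, against 2178 and 1772 with TMM, while the 9 factors kept log2 fold changes of 0.62 (Jun) to 0.96 (Junb). Leaving out 1 library at a time gave 1177 to 1971 genes lower, and the lowest count was without MRL/mpj replicate 1. MRL/lpr replicate 3 decided no call among the factors. The labels give no pairing of libraries by replicate number. Correlations of deviations between same numbers were -0.04, -0.02 and -0.03, which cannot show whether those libraries were processed together. With the replicate block 9 factors, 1754 genes higher and 1309 lower were called. Among related genes, the call of Atf2 was lost in 7 of 18 alternatives and that of Mrtfa in 11, and the cause was not tested. With 3 libraries per strain and high counts, depth did not limit the 9, and the spread of Egr2 between libraries limited its estimate.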
